A study of Mus musculus with 29 samples.

Results

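A set of 9 genes of the oligodendrocyte lineage was followed through every library of the TRAP-RNAseq experiment. They are Pdgfra, Cspg4, Gpr17, Olig1, Olig2, Sox10, Neu4, Nkx2-2 and Bmp4. Each gene was taken as the row of the count table that carries its symbol, so the set holds 9 of 36172 gene rows, and the rule itself uses no measured value. RNA came from brains of 2 inducible mouse lines. In Aldh1l1-Cre/Ert2+; NuTRAP+ mice (Aldh1l1-NuTRAP) the Aldh1l1 promoter drives the tamoxifen-dependent Cre recombinase, and in Cx3cr1-Cre/Ert2+; NuTRAP+ mice (Cx3cr1-NuTRAP) the Cx3cr1 promoter does. All mice of both lines carried the floxed NuTRAP reporter and were given tamoxifen at about 3 months of age on 5 consecutive days, so that Cre-positive cells, astrocytes in the first line and microglia in the other, made a GFP-tagged ribosomal protein. No mouse without Cre or without tamoxifen was among these libraries, and the sex of each mouse is not in the labels. The paper delayed collection of Cx3cr1-NuTRAP brains for some weeks after tamoxifen. For flow cytometry and staining it took Aldh1l1-NuTRAP brains a week after tamoxifen. TRAP (translating ribosome affinity purification) split a cleared homogenate of each brain hemisphere into RNA bound by anti-GFP beads, the positive fraction, and unbound RNA, the negative fraction. The 29 libraries were the positive and negative fractions of 3 Aldh1l1-NuTRAP mice, the positive fraction, negative fraction and input (cleared homogenate) of 6 Cx3cr1-NuTRAP mice, and conventionally isolated whole tissue of 5 of those 6. The whole tissue libraries are titled Slice. Input and whole tissue of Aldh1l1-NuTRAP mice were not analysed here.

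Oligodendrocytes, the myelin-forming cells of the brain, arise from oligodendrocyte precursor cells (OPCs), which remain and divide in the adult. OPCs carry the PDGF receptor encoded by Pdgfra and the NG2 proteoglycan encoded by Cspg4, both of which are lost as the cells differentiate. Gpr17, an orphan G protein-coupled receptor, marks precursors that are committing to differentiation, and Neu4 encodes a sialidase that is abundant in the lineage. Olig1, Olig2, Sox10 and Nkx2-2 encode transcription factors of the lineage: Sox10 and Olig2 act from specification to myelination, Olig1 during maturation and remyelination, and Nkx2-2 around the onset of differentiation. Bmp4 encodes a secreted ligand that promotes astrocyte over oligodendrocyte fate in precursor cultures, and committed precursors also make it.

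Total counts were 11910851 to 22308992 in the Aldh1l1-NuTRAP positive fraction, 8782235 to 25137834 in its negative fraction, and 15486605 to 26857866 in the Cx3cr1-NuTRAP positive, negative and input libraries. Whole tissue spanned 4260949 to 25026611, and the lowest total, that of mouse 210, is the shallowest library. The 8 astrocyte markers all rose in the Aldh1l1-NuTRAP positive fraction, and the 8 microglia markers all rose in the Cx3cr1-NuTRAP positive fraction. Aldh1l1 had 540 ± 40.4 CPM (counts scaled to the library total; mean ± SD) in the Aldh1l1-NuTRAP positive fraction and 71.4 ± 13.3 in its negative fraction (n = 3 each). In the microglial line, Cx3cr1 had 274 ± 84.9 CPM in bound RNA and 27.3 ± 1.27 CPM in the input (n = 6 each). Several libraries stood apart. The positive fraction of mouse 194 was the lowest of its group for 6 of 9 genes, and it had the highest summed microglia marker level (6893 CPM, 2907 to 4521 in the other 5) and the lowest summed level of 13 mature oligodendrocyte markers (1455 CPM, 3164 to 3907 in the other 5). The whole tissue of mouse 210 was the lowest of its group for 6 of 9 genes. The negative fraction of mouse 155 was the lowest for 4 and the highest for 3 of 9, and over all genes its chi-square per degree of freedom against its group was 41.8 to 57.2, where the other pairs had 4.06 to 11.7. Among the Cx3cr1-NuTRAP positive fractions, those of mice 209, 210 and 277 had 8.78 to 15.5 against each other, and those of mice 155 and 194 had 73.7 to 163 against these 3. Both fractions of mouse 290 were apart in the same way (positive 92.3 and 106 against 12.6 for the other pair, negative 58.3 and 60.8 against 20.6). Results are given with and without these mice where a call depends on them. In bulk RNA, fewer cells of a type and less RNA per cell cannot be told apart.

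All 9 genes passed the filter on low counts in every fit. Of these, 8 had more than 20 counts in every library of all 6 groups, and the exception was Bmp4 in whole tissue, with 9 counts in mouse 210. The next lowest count was that of Neu4, with 31 in the Aldh1l1-NuTRAP positive fraction of mouse 293. The plot of CPM by library shows every value.

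**Figure D1:**
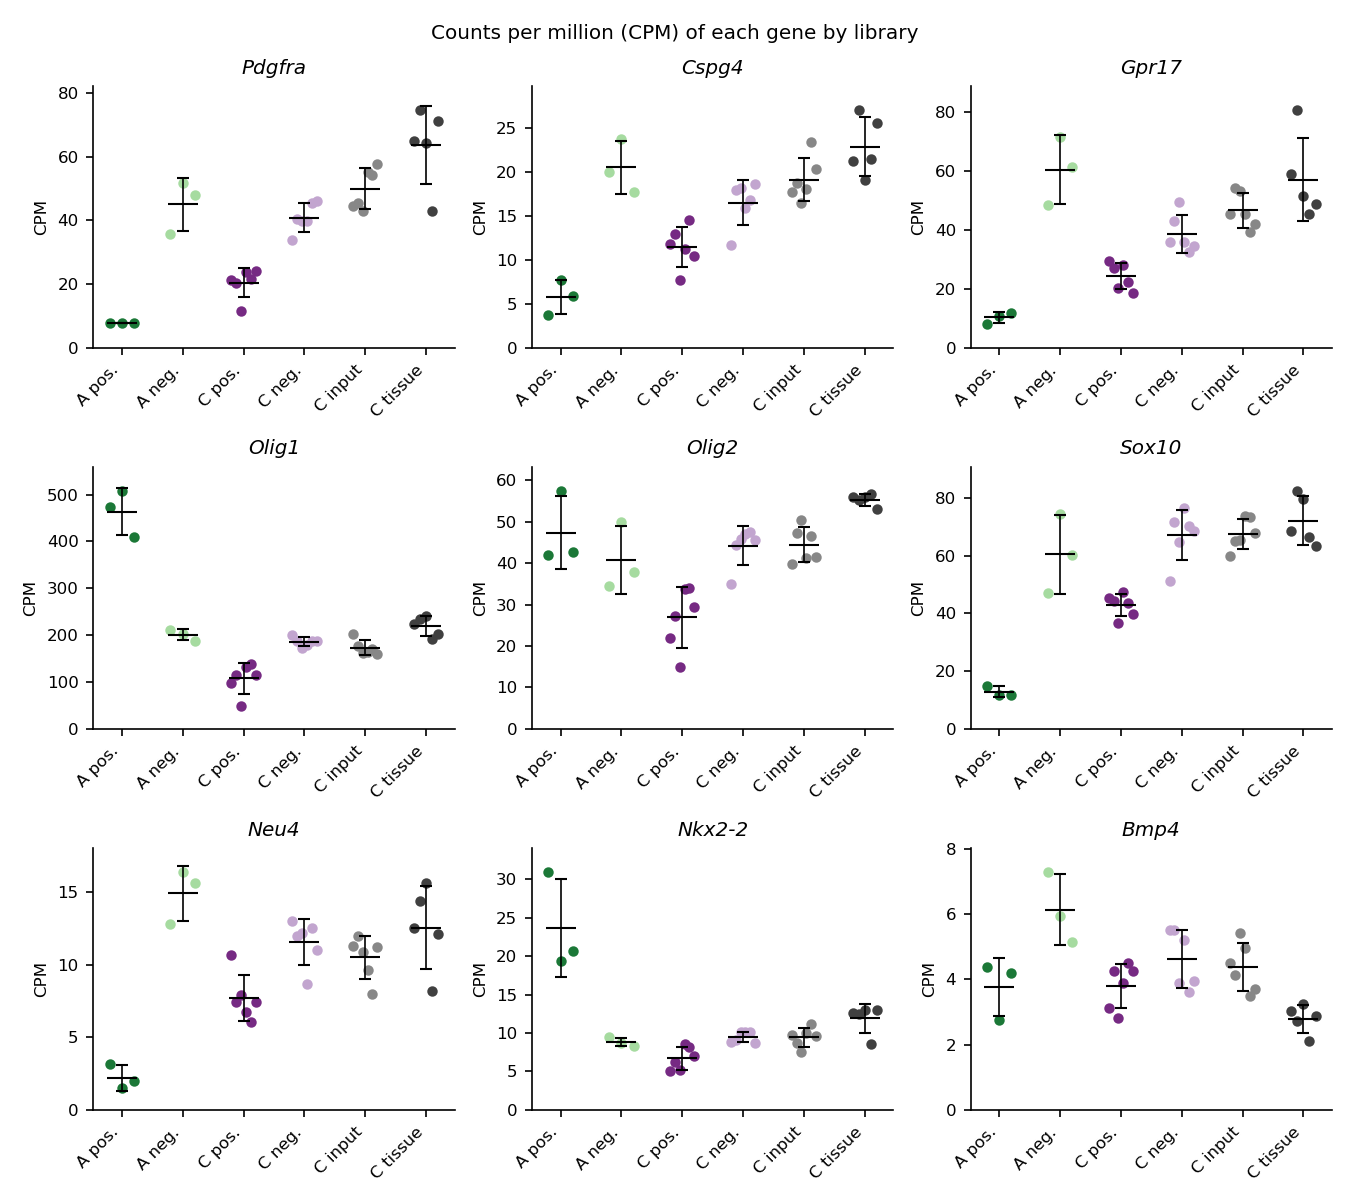
CPM of each of the 9 genes (vertical axis, from 0) in every library, by group (A, Aldh1l1-NuTRAP; C, Cx3cr1-NuTRAP; pos. and neg., positive and negative fraction; tissue, whole tissue). Points are libraries, and bars are the mean ± SD of 3, 3, 6, 6, 6 and 5 libraries. Olig1 and Nkx2-2 were highest in the Aldh1l1-NuTRAP positive fraction, where Pdgfra, Cspg4, Gpr17, Sox10 and Neu4 were lowest.

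Fold changes below are from edgeR's quasi-likelihood test on TMM-scaled counts, with adjusted p (Benjamini-Hochberg over all genes tested) under 0.05 taken as a change. In the astrocyte pulldown the 9 genes went in opposite directions. Against the negative fraction of the same 3 Aldh1l1-NuTRAP mice, 5 genes fell (Pdgfra, Cspg4, Gpr17, Sox10 and Neu4), 3 rose (Olig1, Nkx2-2 and Olig2) and Bmp4 did not pass the test. Of all 13319 genes tested, 26.8% rose and 24.8% fell. The median log2 fold change was -1.47 over the 9 genes and 0.037 over all genes tested. The 6868 genes called in all dropped to 3662 without mouse 293 and 3587 without mouse 294.

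The PDGF receptor gene Pdgfra (Entrez 18595, mm10 chromosome 5, 75152291 to 75198204) had 7.95, 7.73 and 7.78 CPM in the positive fractions of mice 290, 293 and 294. Their negative fractions had 35.7, 51.6 and 47.9 CPM. The groups did not overlap, and the positive fraction varied little between mice. Pdgfra was 4.54-fold lower (log2 -2.18, SE 0.19, edgeR adjusted p = 0.000123). Cspg4, encoding NG2 (Entrez 121021, chromosome 9, 56865104 to 56899870), had 3.78, 7.72 and 5.87 CPM in the positive and 20, 23.8 and 17.8 CPM in the negative fractions. These did not overlap either, and the gene was 2.77-fold lower (log2 -1.47, SE 0.28, edgeR adjusted p = 0.00361).

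Gpr17 (Entrez 574402, chromosome 18, 31942999 to 31949636) had 8.27, 10.7 and 12.0 CPM in the positive fractions and 48.5, 71.6 and 61.5 CPM in the negative fractions. It was lower in 3 of 3 mice, by 4.60-fold (log2 -2.20, SE 0.21, edgeR adjusted p = 0.000194). The sialidase gene Neu4 (Entrez 241159, chromosome 1, 94020493 to 94028330) showed the largest fall of the 9, from 12.8, 16.4 and 15.6 CPM to 3.19, 1.48 and 1.97 CPM. Its fold was 5.41 (log2 -2.44, SE 0.32, edgeR adjusted p = 0.000753), and its positive-fraction libraries held only 31 to 44 counts of it.

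The 4 transcription factor genes split. Sox10 (Entrez 20665, chromosome 15, 79154913 to 79164490) fell with the surface receptors, from 47.0, 74.5 and 60.1 CPM to 15.0, 11.6 and 11.8 CPM. It was 3.72-fold lower (log2 -1.90, SE 0.22, edgeR adjusted p = 0.000427) without overlap of the groups. Olig1 (Entrez 50914, chromosome 16, 91269769 to 91271939) went the other way, with 473, 508 and 409 CPM in the positive fractions and 211, 203 and 188 CPM in the negative fractions. All 3 positive fractions lay above every other library of the series for this gene, and it was 2.93-fold higher than in the negative fraction (log2 1.55, SE 0.16, edgeR adjusted p = 0.000235).

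Nkx2-2 (Entrez 18088, chromosome 2, 147177546 to 147186402) had 31.0, 19.4 and 20.7 CPM in the positive fractions and 9.46, 8.74 and 8.31 CPM in the negative fractions. Again each positive fraction exceeded every library of the 5 other groups, and the gene was 3.42-fold higher (log2 1.77, SE 0.24, edgeR adjusted p = 0.000846). An antisense row, Nkx2-2as, overlaps this gene on the opposite strand. It had 5.24 ± 0.914 CPM in the positive and 0.824 ± 0.0724 CPM in the negative fraction (SD, n = 3), so sense and antisense rows were both higher. The counting was direction-aware, and carry-over of reads between the strands was not tested.

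Olig2 (Entrez 50913, chromosome 16, 91225550 to 91228677) lies 41.1 kb from Olig1 on the same strand. It had 42.0, 57.5 and 42.6 CPM in the positive fractions and 34.5, 50.0 and 37.9 CPM in the negative fractions, so the groups overlapped, although each mouse was higher in its positive fraction, by 1.12 to 1.22 times in CPM. The fitted rise was 1.48-fold (log2 0.56, SE 0.20) with an edgeR adjusted p of 0.0499. This call was lost with DESeq2 size factors (adjusted p = 0.0605), with total counts only (log2 0.21, adjusted p = 0.42), with no filter (adjusted p = 0.0624), without mouse 293 (adjusted p = 0.154) and without mouse 294 (adjusted p = 0.207). The Olig2 call held with DESeq2's own test, with all 6 groups in 1 fit, with the mouse as replicate block and without mouse 290. The calls of Olig1, Nkx2-2 and the 5 genes that fell held under each of these settings. Scaling to total counts only moved the median of all genes by -0.348 on the log2 scale, and the share of calls that were rises went from 52.0% to 33.6%.

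Bmp4 (Entrez 12159, chromosome 14, 46383520 to 46390599) had 4.37, 2.76 and 4.20 CPM in the positive and 7.30, 5.95 and 5.16 CPM in the negative fractions. CPM was lower in 3 of 3 mice and the groups did not overlap, but the TMM-scaled difference did not pass the test (log2 -0.35, 95% confidence interval -1.02 to 0.32, edgeR adjusted p = 0.335).

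Markers of other cell types moved in the same fractions, and their part in these results was not tested. Between the Aldh1l1-NuTRAP fractions, 12 of 13 mature oligodendrocyte markers fell (summed level 1232 to 1446 CPM in the positive and 6657 to 8090 CPM in the negative fraction), as did 8 of 8 neuron markers (1421 to 1921 and 6215 to 7564 CPM) and 8 of 8 microglia markers (62.7 to 128 CPM, and at least 330 CPM in each negative fraction). The astrocyte markers had a summed level of 16122 to 23943 CPM in the positive and 3048 to 3975 CPM in the negative fraction. All 5 choroid plexus markers rose as well (2906 to 3368 and 484 to 633 CPM), and of 7 fibroblast and leptomeningeal markers 2 rose and 4 fell.

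To show upstream sequence of a gene that rose and of one that fell, the 250 bases before the start sites that the RefSeq promoter table of build GRCm38.p6 gives for Nkx2-2 and Pdgfra are shown. For Pdgfra that start lies 40 bases upstream of the gene start given above, and for Nkx2-2 both are the same. Capitals mark matches to CANNTG, the E-box that basic helix-loop-helix factors such as the Olig proteins can bind. The Nkx2-2 window is chr2:147186403-147186652 on the minus strand and the Pdgfra window is chr5:75152001-75152250 on the plus strand.
Nkx2-2: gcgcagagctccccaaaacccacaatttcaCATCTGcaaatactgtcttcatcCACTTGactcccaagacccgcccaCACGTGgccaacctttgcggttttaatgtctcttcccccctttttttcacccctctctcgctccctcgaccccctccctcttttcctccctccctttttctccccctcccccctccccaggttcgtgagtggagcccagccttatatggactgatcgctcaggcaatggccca
Pdgfra: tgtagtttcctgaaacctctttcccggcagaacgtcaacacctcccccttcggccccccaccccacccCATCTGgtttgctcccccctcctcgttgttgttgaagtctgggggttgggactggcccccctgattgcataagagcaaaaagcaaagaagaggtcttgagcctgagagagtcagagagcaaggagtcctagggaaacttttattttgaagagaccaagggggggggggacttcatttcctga
Nkx2-2 held 3 matches and Pdgfra held 1. Of the 6 genes for which a window could be used, Bmp4 also held 3, Neu4 held 1, and Cspg4 and Olig2 held none. Of all 32851 promoter windows of this length, 66.2% held at least 1 match, so a match is common. The SOX-type letters ACAAAG or CTTTGT were in 16.5% of all windows and in none of the 6, and ACAATG or CATTGT were in 10.7% of all windows and, of the 6, in Olig2 only. CANNTG is its own reverse complement and the SOX-type letters were searched on both strands. None of these matches is evidence of binding.

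In the microglia pulldown 8 of the 9 genes fell and Bmp4 did not pass. Against the input of the same 6 Cx3cr1-NuTRAP mice, those 8 fell and none rose, where 48.9% of the 13838 genes tested changed (25.6% fell and 23.3% rose). Against the negative fraction the same 8 fell, where 24.3% of 13776 genes changed (11.6% fell and 12.8% rose). Against whole tissue the same 8 fell, where 51.8% of 13470 genes changed (24.3% fell and 27.5% rose). Bmp4 was the gene that did not pass in each of the 3 comparisons. Against the negative fraction, the share of all genes called was 12.6% without mouse 192 and 14.6% without mouse 194. These comparisons share the positive fractions, so they are not independent of each other. The median log2 fold change over the 9 genes was -0.67 against input, -0.62 against the negative fraction and -0.99 against whole tissue, and over all genes it was -0.003, -0.018 and 0.051.

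Pdgfra fell most. Its CPM in the positive fraction ran from 11.6 through a median of 21.5 to 24.2, against 42.9, 49.8 and 57.6 in the input. It was lower in 6 of 6 mice, by 2.42-fold (log2 -1.27, SE 0.15, edgeR adjusted p = 1.12e-05). Against whole tissue it was 3.09-fold lower (log2 -1.63, SE 0.17, edgeR adjusted p = 9.96e-06) and against the negative fraction 1.96-fold (log2 -0.97, SE 0.14, edgeR adjusted p = 0.00019).

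Gpr17 had 18.7, 24.8 and 29.6 CPM (lowest, median and highest) in the positive fraction and 39.2, 45.6 and 54.4 CPM in the input, with no overlap. It was 1.89-fold lower (log2 -0.92, SE 0.12, edgeR adjusted p = 4.04e-05). Cspg4 had 7.74, 11.5 and 14.5 CPM against 16.5, 18.5 and 23.4 CPM, also without overlap, and was 1.66-fold lower (log2 -0.73, SE 0.13, edgeR adjusted p = 0.000499). Against the negative fraction the Cspg4 groups overlapped and the fall was 1.42-fold (edgeR adjusted p = 0.0212). That call was lost with the mouse as replicate block (edgeR adjusted p = 0.0562) and without mouse 192, 194, 209 or 277 (edgeR adjusted p = 0.0504 to 0.089).

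The 4 transcription factor genes, which diverged in the astrocyte pulldown, all fell here. Olig1 had 47.8, 116 and 139 CPM in the positive fraction and 160, 168 and 203 CPM in the input, with no overlap (1.59-fold lower, log2 -0.67, SE 0.19, edgeR adjusted p = 0.00929). Olig2 had 15.0, 28.4 and 34.1 CPM against 39.9, 44.1 and 50.4 CPM, with no overlap (1.64-fold lower, edgeR adjusted p = 0.00192). Sox10 had 36.8, 44.0 and 47.5 CPM against 59.9, 66.7 and 73.6 CPM, with no overlap and the narrowest error of the 9 (1.56-fold lower, log2 -0.64, SE 0.08, edgeR adjusted p = 1.60e-05).

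Nkx2-2 and Neu4 showed the smallest changes that passed. Nkx2-2 had 5.09, 6.60 and 8.55 CPM in the positive fraction and 7.51, 9.67 and 11.2 CPM in the input, and these overlapped through the positive fractions of mice 209 (8.55) and 210 (8.20) (1.39-fold lower, log2 -0.48, SE 0.14, edgeR adjusted p = 0.0135). Neu4 had 6.08, 7.41 and 10.7 CPM against 7.97, 11.0 and 12.0 CPM, also overlapping (1.34-fold lower, log2 -0.42, SE 0.15, edgeR adjusted p = 0.0273). Both were nevertheless lower in 6 of 6 mice. The Neu4 call against input was lost without mouse 192, 194, 209 or 277 (edgeR adjusted p = 0.0649 to 0.141) and the Nkx2-2 call without mouse 192 (edgeR adjusted p = 0.0501). Against the negative fraction, 5 of 9 genes were called without mouse 192 and 5 without mouse 194, since Neu4, Nkx2-2 and Cspg4 no longer passed. Neu4 was also lost there without mouse 210 or 277 (edgeR adjusted p = 0.0593 and 0.0515). Bmp4 had 2.83, 4.07 and 4.49 CPM against 3.49, 4.32 and 5.43 CPM in the input (log2 -0.18, 95% confidence interval -0.52 to 0.15, edgeR adjusted p = 0.343). Against whole tissue its difference was log2 0.43 (edgeR adjusted p = 0.0544, and 0.0494 without mouse 155).

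In the same comparison with input, 12 of 13 mature oligodendrocyte markers fell (summed level 1455 to 3907 CPM in the positive fraction and 5103 to 5860 CPM in the input, median log2 -0.65), 5 of 8 astrocyte markers fell (2778 to 4309 and 4450 to 4823 CPM) and 1 of 8 neuron markers fell (4935 to 7650 and 6904 to 7268 CPM), or 2 were called without mouse 155, 194 or 209. Of the pericyte and smooth muscle markers, cells that also express Cspg4, 4 of the 8 tested fell and 1 rose (summed level 76.1 to 135 and 132 to 146 CPM), and 3 were called without mouse 192. Of 6 endothelial markers, 2 rose (80 to 164 and 88.6 to 107 CPM), or 1 without mouse 209, 210 or 277. Of 7 fibroblast and leptomeningeal markers, cells in which Pdgfra is also known, 4 fell (206 to 267 and 228 to 287 CPM), and 3 of 5 choroid plexus markers fell (216 to 1034 and 825 to 995 CPM). Their part in the fall of the 9 genes was not tested.

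**Figure D2:**
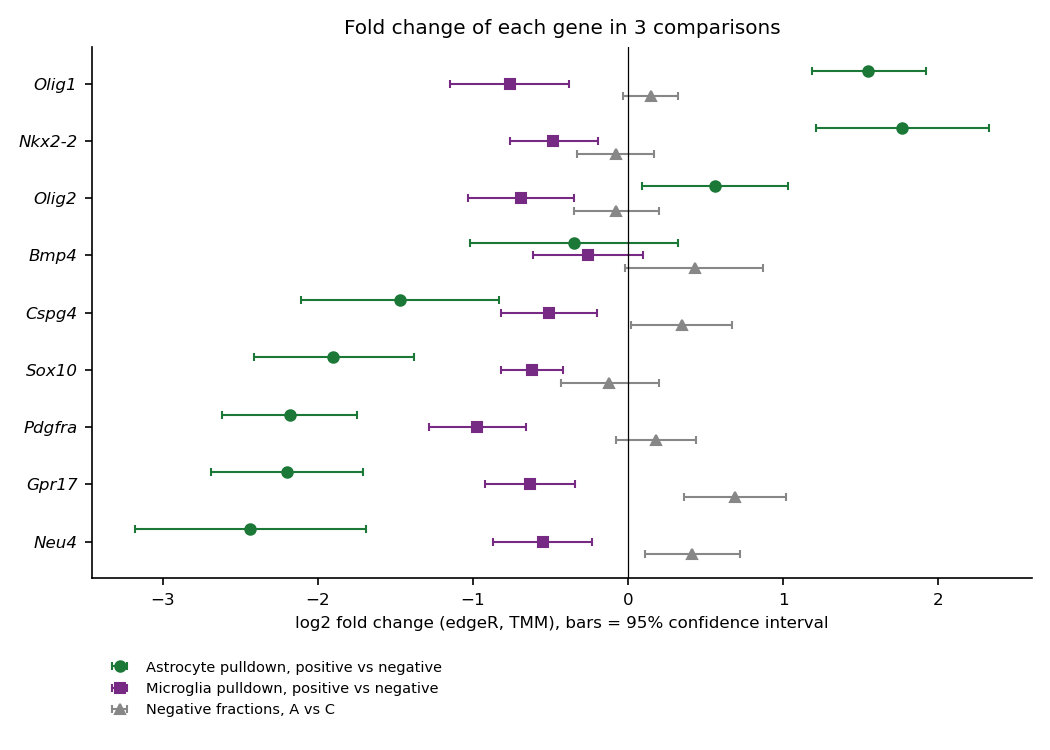
Log2 fold change of each gene (horizontal axis; edgeR, TMM scaling) with its 95% confidence interval for the positive against the negative fraction in Aldh1l1-NuTRAP mice (n = 3 and 3, circles), the same in Cx3cr1-NuTRAP mice (n = 6 and 6, squares), and the negative fractions of the lines against each other (n = 3 and 6, triangles). Olig1, Nkx2-2 and Olig2 lie right of 0 in the astrocyte and left of 0 in the microglia pulldown, and the triangles lie between -0.12 and 0.69.

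An interaction term compared the enrichment of each gene on the beads between the lines. Of 13983 genes, 25.5% had the higher log2 enrichment in Aldh1l1-NuTRAP mice and 29.9% the lower, and with total counts only the share of calls that were rises went from 46.1% to 31.3% (shift of the median of all genes -0.275). Of the 9 genes, 3 were higher, 5 were lower and Bmp4 did not pass (log2 difference -0.13, 95% confidence interval -0.77 to 0.50, edgeR adjusted p = 0.718). The log2 difference was 2.28 for Olig1 (SE 0.29, edgeR adjusted p = 2.53e-06), 2.21 for Nkx2-2 (SE 0.25, edgeR adjusted p = 5.67e-07) and 1.21 for Olig2 (SE 0.27, edgeR adjusted p = 0.001). It was -1.94 for Neu4, -1.61 for Gpr17, -1.32 for Sox10, -1.26 for Pdgfra and -1.01 for Cspg4, with edgeR adjusted p from 2.14e-05 to 0.00626. These 8 calls held under every alternative tried for the interaction and without any single mouse. In the same interaction, 8 of 8 neuron markers were lower (median log2 -1.53). Of 13 mature oligodendrocyte markers, 11 were lower and 1 was higher (median log2 -1.97), while 8 of 8 astrocyte markers were higher. The part of these markers in the differences of the 9 genes was not tested.

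The positive fractions were also set against each other directly, 3 Aldh1l1-NuTRAP against 6 Cx3cr1-NuTRAP mice. Line, mice, time from tamoxifen to collection and any preparation date cannot be told apart here or in the interaction. The same 3 genes were higher and the same 5 lower in the Aldh1l1-NuTRAP positive fraction, where 30.6% of 13676 genes were higher and 33.1% lower. Olig1 was 5.37-fold higher (log2 2.42, SE 0.25, edgeR adjusted p = 8.72e-06), Nkx2-2 was 4.39-fold higher (log2 2.13, SE 0.21, edgeR adjusted p = 6.24e-06) and Olig2 was 2.19-fold higher (log2 1.13, SE 0.22, edgeR adjusted p = 0.00096). In CPM, none of these 3 genes overlapped between the positive fractions.

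Neu4 was 2.87-fold lower, Sox10 2.71-fold, Pdgfra 2.11-fold and Gpr17 1.90-fold lower in the Aldh1l1-NuTRAP positive fraction (edgeR adjusted p from 8.72e-06 to 0.00174). Cspg4 was 1.58-fold lower (log2 -0.66, SE 0.25, edgeR adjusted p = 0.0354). The Cspg4 call was lost with no filter (edgeR adjusted p = 0.0619) and without mouse 155, 192, 210, 290 or 294 (edgeR adjusted p = 0.0596 to 0.114). Bmp4 did not pass (log2 0.30, 95% confidence interval -0.21 to 0.81, edgeR adjusted p = 0.271). Scaling to total counts only moved the median of all genes by -0.31 in this comparison and the share of calls that were rises from 48.0% to 31.3%, and it turned the sign of the Bmp4 difference (log2 -0.02).

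The negative fractions gave the background for that contrast. Between Aldh1l1-NuTRAP and Cx3cr1-NuTRAP negative fractions, 0.250% of 13613 genes passed edgeR's test (34 genes, 50.0% of them higher, or 28.6% of the calls with total counts only) and none of the 9 genes did, while 3 of the 9 had an unadjusted p under 0.05 and DESeq2 called 1. DESeq2 called 517 of all genes, and edgeR's 34 ran from 0 without mouse 293 to 133 without mouse 290, with over 1.5 times more or fewer for each mouse left out. That gene was Gpr17, at 48.5 to 71.6 CPM in Aldh1l1-NuTRAP and 32.4 to 49.6 CPM in Cx3cr1-NuTRAP mice (log2 0.69, 95% confidence interval 0.36 to 1.02, edgeR adjusted p = 0.111, DESeq2 adjusted p = 0.00294). Without mouse 290 edgeR called it too (adjusted p = 0.0428).

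The ratio of a pair of genes within a library does not depend on how libraries are scaled. Olig1 had 8.84 to 11.3 times the CPM of Olig2 in the Aldh1l1-NuTRAP positive fraction, 4.07 to 6.11 times in its negative fraction and 3.18 to 4.48 times in the Cx3cr1-NuTRAP positive fraction. The other 3 groups lay between 3.20 and 5.75. Nkx2-2 had 1.68 to 2.07 times the CPM of Sox10 in the Aldh1l1-NuTRAP positive fraction and 0.113 to 0.206 times in the 26 other libraries. Olig2 had 2.80 to 4.97 times the CPM of Sox10 there and 0.409 to 0.852 times elsewhere. These pairs were chosen with the divergence of the genes in that fraction known, so the ratios are a description and carry no test. For pairs of genes that fell in both pulldowns, the ranges of the positive fractions of the lines overlapped. Pdgfra had 0.647 to 0.962 times the CPM of Gpr17 in the Aldh1l1-NuTRAP positive fraction and 0.566 to 1.29 times in the Cx3cr1-NuTRAP positive fraction. Pdgfra to Cspg4 had 1.00 to 2.11 and 1.49 to 2.31 in these fractions, and Gpr17 to Sox10 had 0.551 to 1.02 and 0.468 to 0.654. For Gpr17 to Sox10 the Aldh1l1-NuTRAP median was 0.926, above the highest Cx3cr1-NuTRAP value. In the negative fractions this ratio was 0.962 to 1.03 in Aldh1l1-NuTRAP and 0.46 to 0.767 in Cx3cr1-NuTRAP mice, with no overlap.

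**Figure D3:**
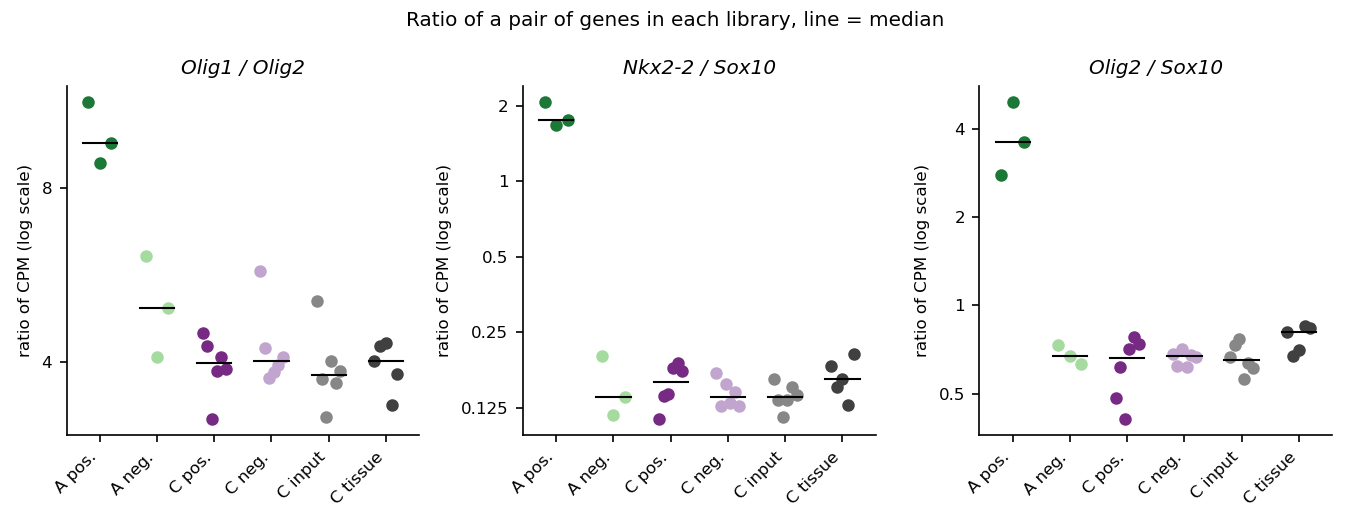
Ratio of the CPM of Olig1 to Olig2, Nkx2-2 to Sox10 and Olig2 to Sox10 (vertical axes, log scale) in each of the 29 libraries by group, with the group median as a line. The 3 Aldh1l1-NuTRAP positive fractions (A pos.) lie above every other library in each panel, at medians of 9.59, 1.76 and 3.62.

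Unbound RNA and input of the Cx3cr1-NuTRAP mice were compared next, to see whether removing tagged ribosomes changed these genes in what was left. In this comparison 6.11% of 13748 genes passed (4.70% lower and 1.41% higher) and none of the 9 genes did in edgeR without a block, while 2 had an unadjusted p under 0.05 and DESeq2 called 1. The number of all genes called rested on single mice, with 3815 (27.6%) without mouse 155, 3 without mouse 194 and 0 without mouse 192, 209, 210 or 277, and DESeq2 called 2056 (15.0%). With the mouse as replicate block 3 of the 9 were called, where 5115 of all genes (37.2%) were, so the share of the 9 was near the background. Pdgfra was lower in the negative fraction in 6 of 6 mice (log2 -0.28, 95% confidence interval -0.47 to -0.10, edgeR adjusted p = 0.061, with the block 0.00107, DESeq2 0.0278). Gpr17 was also lower in 6 of 6 mice (log2 -0.27, edgeR adjusted p = 0.117, with the block 0.000767). Olig1 was higher in 5 of 6 mice (log2 0.11, edgeR adjusted p = 0.212, with the block 0.0156). Without mouse 155, Pdgfra and Olig1 passed without the block (edgeR adjusted p = 0.0124 and 0.0163).

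Input and whole tissue of the Cx3cr1-NuTRAP mice differ in how the RNA was obtained. Input came from a hemisphere and whole tissue is titled Slice, so the piece of brain may differ too, which was not tested. In input, 4 of the 9 genes were lower than in whole tissue (Pdgfra, Olig1, Olig2 and Nkx2-2) and Bmp4 was higher, where 14.2% of 13608 genes were lower and 16.3% higher. With no filter the Pdgfra and Nkx2-2 calls were lost (edgeR adjusted p = 0.0645 and 0.0587), and with all 6 groups in 1 fit the calls of Pdgfra, Nkx2-2, Olig1 and Olig2 were (0.0564, 0.0619, 0.0803 and 0.0757), which left Bmp4. The whole tissue of mice 192, 194, 209, 210 and 277 had 65.0, 74.7, 64.2, 43.0 and 71.3 CPM of Pdgfra and 55.9, 55.3, 55.9, 56.7 and 53.0 CPM of Olig2. Pdgfra overlapped with the input through mouse 210 only, and Olig2 did not overlap (1.25-fold lower in input, log2 -0.32, SE 0.07, edgeR adjusted p = 0.00344). Olig1 was 1.27-fold lower in input (log2 -0.35, SE 0.07, edgeR adjusted p = 0.00308).

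Bmp4 was the only one of the 9 with its lowest mean in whole tissue, at 3.03, 2.72, 3.25, 2.11 and 2.87 CPM in the same 5 mice against 3.49, 4.32 and 5.43 CPM (lowest, median, highest) in input. The groups did not overlap, and Bmp4 was 1.51-fold higher in input (log2 0.59, SE 0.16, edgeR adjusted p = 0.0134). The value of mouse 210 rests on 9 counts. Without mouse 194 the Bmp4 call was lost (edgeR adjusted p = 0.0763). With the mouse as replicate block, Pdgfra (edgeR adjusted p = 0.125) and Nkx2-2 (edgeR adjusted p = 0.115) no longer passed and Gpr17 did (edgeR adjusted p = 0.0491). Leaving out the whole tissue of mouse 210 raised the number of the 9 genes called from 5 to 7, while the share of all genes called went from 30.5% to 40.4%, and it added Neu4 (edgeR adjusted p = 0.0159) and Gpr17 (edgeR adjusted p = 0.045). Leaving out every library of a mouse (for mouse 155 the input only, as it has no whole tissue) ended some calls. The Pdgfra call was lost for mouse 155, 192, 194, 209 or 277 (edgeR adjusted p = 0.0562 to 0.166). The Nkx2-2 call was lost for mouse 192, 194, 209 or 277 (edgeR adjusted p = 0.0954 to 0.122). Hence 3 genes were called without mouse 192, 209 or 277 and 2 without mouse 194, while 7 were called without mouse 210. All genes called fell to 2726, 2549 and 2587 without mouse 192, 194 and 209, from 4144. Of the markers, 12 of 13 mature oligodendrocyte, 6 of 6 endothelial and 6 of 8 tested pericyte and smooth muscle markers were also lower in input. Of the neuron markers 4 were higher and 2 lower, and 3 of 7 fibroblast and leptomeningeal and 2 of 5 choroid plexus markers were higher. The part of these markers in the differences of the 9 genes was not tested.

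Levels of different genes were compared per kilobase of annotated exon (union of GENCODE vM21 exons). In whole tissue Olig1 led with 101 ± 10.0 CPM per kb (SD, n = 5), followed by Sox10 with 23.7 ± 2.75 and Olig2 with 21.9 ± 0.564, which overlapped within their spread. Gpr17 had 11.0 ± 2.72, Pdgfra 6.35 ± 1.23 and Nkx2-2 4.15 ± 0.661. Neu4, Cspg4 and Bmp4 were lowest, with 2.71 ± 0.612, 1.92 ± 0.275 and 1.24 ± 0.192. In the Aldh1l1-NuTRAP positive fraction Olig1 had 214 ± 23.3 CPM per kb and Olig2 18.7 ± 3.47 (SD, n = 3), and Nkx2-2 came next with 8.25 ± 2.22. Sox10 had 4.19 ± 0.631 there, Gpr17 1.99 ± 0.366, Bmp4 1.68 ± 0.392 and Pdgfra 0.780 ± 0.0118, while Cspg4 (0.485 ± 0.165) and Neu4 (0.477 ± 0.190) did not differ beyond their spread.

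By group, the order of mean CPM differed between genes. For the 5 genes that fell in both pulldowns only the last 2 places were shared, those of the Cx3cr1-NuTRAP and then the Aldh1l1-NuTRAP positive fraction, while the Aldh1l1-NuTRAP negative fraction ranked first for Gpr17 (60.5) and Neu4 (14.9). Pdgfra ran from whole tissue (63.7) through input (49.9), the Aldh1l1-NuTRAP negative fraction (45.1) and the Cx3cr1-NuTRAP negative fraction (40.9) to the Cx3cr1-NuTRAP positive fraction (20.5) and the Aldh1l1-NuTRAP positive fraction (7.82). Its first 4 groups overlapped with their neighbours, and the last 2 were each clear of the one above. The Aldh1l1-NuTRAP positive fraction was also lowest and clear of the next group for Cspg4, Gpr17, Sox10 and Neu4. For Olig2 the ranges of whole tissue (55.4), the Aldh1l1-NuTRAP positive fraction (47.4), input (44.5) and both negative fractions (44.2 and 40.8) overlapped from neighbour to neighbour, and only the Cx3cr1-NuTRAP positive fraction (27.0) was clear of the next. For Bmp4 every pair of neighbouring groups overlapped.

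Other genes of the lineage were counted in lists. The lists share genes (Id2, Id4, Tcf7l2, Lims2 and Pdgfrb), so their counts are not separate. Of all genes tested, 26.8% rose and 24.8% fell between the Aldh1l1-NuTRAP fractions. In the Cx3cr1-NuTRAP positive fraction against input, 23.3% rose and 25.6% fell. Of 15 further OPC genes, 6 fell, 3 rose and 6 did not pass in the Aldh1l1-NuTRAP positive against negative fraction (median log2 -0.64, all genes 0.037). The largest fall was that of Pcdh15, a protocadherin gene (log2 -2.30, SE 0.19, edgeR adjusted p = 0.000116), and the largest rise that of Gpr37l1, a receptor gene that astrocytes also express strongly (log2 3.44, SE 0.18, edgeR adjusted p = 3.37e-05). The 9 calls of this list became 14 without mouse 290 and 3 without mouse 293 or 294. In the Cx3cr1-NuTRAP positive fraction against input 10 of the 15 fell and none rose (median log2 -0.47), led by Xylt1, a xylosyltransferase gene of proteoglycan synthesis (log2 -1.25, edgeR adjusted p = 0.00102). Of 12 genes of committed precursors and newly formed oligodendrocytes, 5 fell and 3 rose in the Aldh1l1-NuTRAP positive fraction (median log2 -0.21). Enpp6, a phosphodiesterase gene of new oligodendrocytes, fell most (log2 -3.01, SE 0.34, edgeR adjusted p = 0.000354), and Itpr2, an inositol trisphosphate receptor gene, rose most (log2 1.57, SE 0.16, edgeR adjusted p = 0.000256). The number of calls in this list was 5 without mouse 294, from 8. Against input in Cx3cr1-NuTRAP mice, 4 of the 11 tested fell, with Enpp6 lowest (log2 -1.08, edgeR adjusted p = 0.00118), and Itpr2 alone rose (log2 0.66, edgeR adjusted p = 7.68e-05). The share of this list called there was near the 48.9% of all genes.

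The mature oligodendrocyte markers fell in the Aldh1l1-NuTRAP positive fraction by a median log2 of -2.77, led by Ugt8a, which makes the myelin lipid galactosylceramide (log2 -3.50, SE 0.22, edgeR adjusted p = 5.17e-05). Mog, a myelin surface protein gene, fell by 3.27 and Mbp, encoding myelin basic protein, fell by 2.40 on the log2 scale (edgeR adjusted p = 8.89e-05 and 0.000144). Between the positive fractions 11 of the 13 were lower in Aldh1l1-NuTRAP mice and Cnp, encoding a myelin-associated phosphodiesterase, was higher (log2 1.05, SE 0.27, edgeR adjusted p = 0.00571).

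Of 18 other transcription factor genes of the lineage, 16 could be tested. In the Aldh1l1-NuTRAP positive fraction 10 rose and 3 fell (median log2 1.08), so this list lay above all genes (0.037), unlike the 9 genes and the other lineage lists. Several members of the list also act in astrocytes. Sox9, a gliogenic factor kept by astrocytes, rose most, with 290 ± 66.8 CPM in the positive and 47.5 ± 9.06 CPM in the negative fraction (SD, n = 3; log2 2.96, SE 0.25, edgeR adjusted p = 0.000132). Sox8, the relative of Sox9 and Sox10, rose by 1.41 on the log2 scale (SE 0.23, edgeR adjusted p = 0.00183). St18, a zinc finger gene, fell most (log2 -2.30, SE 0.39, edgeR adjusted p = 0.00243). In the Cx3cr1-NuTRAP positive fraction against input 7 of the 16 fell and 2 rose, Sox6 lowest (log2 -1.14, edgeR adjusted p = 2.08e-05) and Zfp488 highest (log2 1.03, edgeR adjusted p = 0.00564). Myrf, the myelin regulatory factor gene, is listed at 0 in all 29 libraries, as are Bmp2 and Bmpr2, and gives no value here.

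The partners of the receptor and of the ligand were counted in the same way. In the Aldh1l1-NuTRAP positive fraction, 4 of the 6 other PDGF family genes rose and 2 fell. The ligand gene Pdgfa, whose product acts on the Pdgfra receptor, fell by 0.93 on the log2 scale (20.1 ± 4.67 and 48.8 ± 8.16 CPM, SD, n = 3; SE 0.23, edgeR adjusted p = 0.0126), and the ligand gene Pdgfb fell most (log2 -1.04, edgeR adjusted p = 0.00964). Both calls were lost without mouse 293 (edgeR adjusted p = 0.101 and 0.0536) and without mouse 294 (0.0914 and 0.0919). Pdgfrb, the receptor gene best known from pericytes, rose by 1.62 (SE 0.15, edgeR adjusted p = 0.000188), and the receptor-like gene Pdgfrl rose most (log2 2.39, SE 0.39, edgeR adjusted p = 0.00209). Of the 8 tested pericyte and smooth muscle markers, 2 rose and 3 fell. Of 25 tested BMP pathway genes, 14 rose and 4 fell (median log2 1.14). Id3, a target gene of BMP signalling, rose most (log2 3.60, SE 0.35, edgeR adjusted p = 0.000222), and Fst, encoding the antagonist follistatin, fell most (log2 -2.49, SE 0.40, edgeR adjusted p = 0.0019). The BMP antagonist gene Nog did not pass (log2 0.53, SE 0.29, edgeR adjusted p = 0.159), but it did with the mouse as replicate block (edgeR adjusted p = 0.0155), with all 6 groups in 1 fit (0.0286) and without mouse 290 (0.00507). In the Cx3cr1-NuTRAP positive fraction against input, 17 of 26 BMP pathway genes fell and 1 rose (median log2 -0.41). Of the 3 other sialidase genes, Neu2 fell in the Aldh1l1-NuTRAP positive fraction (log2 -1.28, SE 0.27, edgeR adjusted p = 0.00626) and the other 2 did not pass. Without mouse 293 or 294, edgeR called 3 of the 6 PDGF family genes and the Neu2 call was lost. The 5 pericyte and smooth muscle calls became 2 and 1, and the 6 fibroblast and leptomeningeal calls became 1 and 3, without mouse 293 and 294.

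**Figure D4:**
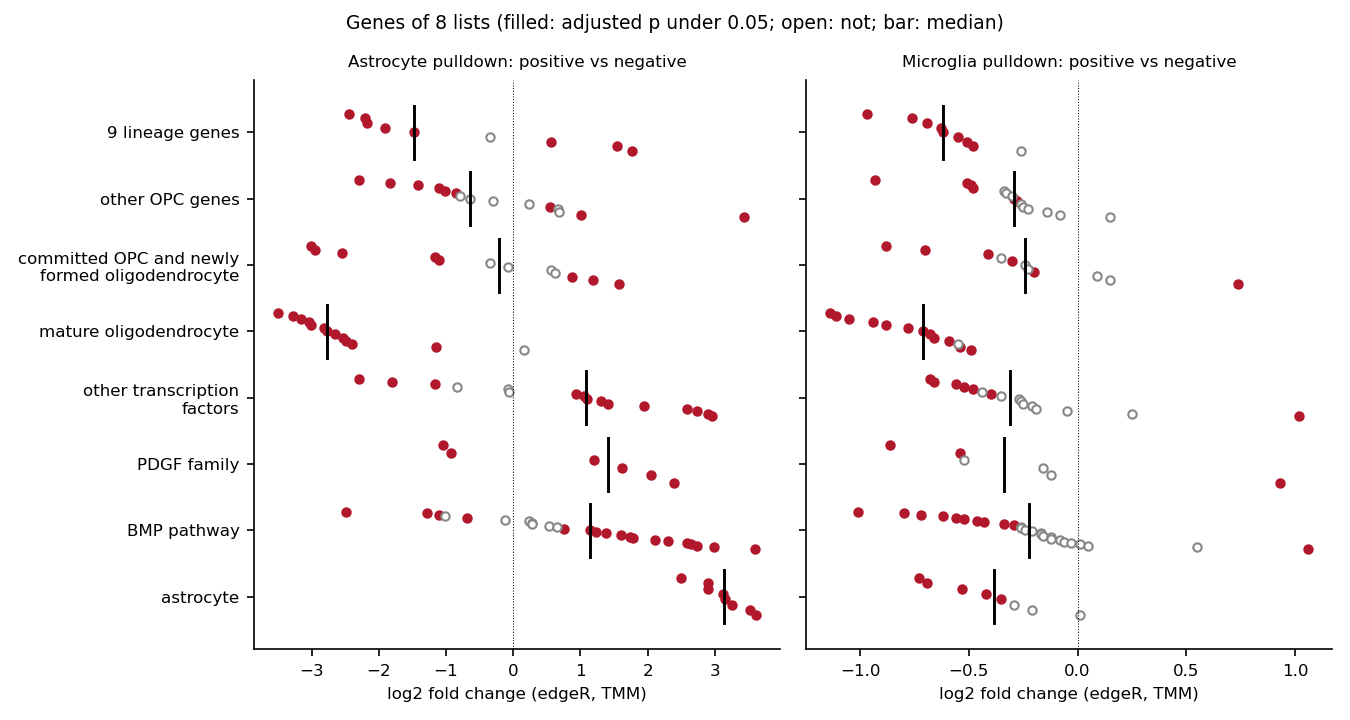
Log2 fold change (horizontal axes; edgeR, TMM scaling; the ranges of the panels differ) of every tested gene in 8 lists for the positive against the negative fraction of Aldh1l1-NuTRAP (left) and Cx3cr1-NuTRAP mice (right). Filled points passed an adjusted p under 0.05, open points did not, and bars are list medians. In the left panel the 9 lineage genes reach from -2.44 to 1.77, the mature oligodendrocyte genes centre on -2.77 and the astrocyte genes on 3.13.

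Likeness of pattern was described by Pearson correlation of log2 CPM over the 29 libraries among 14109 genes. The libraries share mice and fall into groups, so r mostly reflects the differences between groups and carries no p. Pdgfra, Cspg4, Gpr17, Sox10 and Neu4 had r of 0.69 to 0.91 with each other. Olig1 had r = 0.92 with Nkx2-2 and 0.83 with Olig2, and its r with those 5 genes was -0.48 to -0.17. The 3 nearest genes of Olig1 were Car2 (r = 0.987), Fam19a5 (0.975) and Plekhb1 (0.968), and those of Nkx2-2 were Svip (0.96), Dirc2 (0.958) and Ptplad1 (0.955). Those of Olig2 were Rtn3 (0.917), Taf9b (0.914) and Ank (0.903). For Pdgfra they were Slain1 (0.97), Ugt8a (0.969) and Gcc2 (0.968), for Cspg4 Prkacb (0.917), Adamts4 (0.916) and Spag6 (0.915), and for Gpr17 Tspan2 (0.942), Serinc5 (0.93) and Ccp110 (0.928). For Sox10 they were Itgb4 (0.97), Rapgef4 (0.961) and Ica1l (0.958), and for Neu4 Mag (0.923), Foxl2 (0.918) and Zdhhc20 (0.916). Bmp4 had the loosest neighbours, Mex3a (0.818), Ptges3l (0.799) and Mtfp1 (0.789).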

How the data were processed

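The deposited table holds raw values per gene, which are expected counts that the authors made with Strand NGS by direction-aware alignment of paired-end reads from strand-specific poly(A) libraries to mm10 and assignment to RefSeq genes. DESeq-normalized log2 columns, also deposited by the authors, were not used. Fractional values (82.4% of those above 0, at a tolerance of 1e-06) were rounded before testing. Each library was assigned by its column title, and the number of unmatched sample columns was 0. No pair among the 61 pairs of libraries of 1 group agreed within sampling noise (lowest chi-square per degree of freedom 4.06).

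The filter kept a gene when, in 1 or more of the compared groups, all libraries exceeded 20 counts. Kept genes were tested with edgeR 4.0.16 (R 4.3.3, limma 3.58.1, TMM scaling, robust quasi-likelihood fit, two-sided, Benjamini-Hochberg, threshold 0.05), with the compared groups alone in each fit. The script was tested on simulated counts. The lowest counts behind a value were 9 for Bmp4 and 31 for Neu4. p-values measure the spread between mice. Alternatives were DESeq2 size factors, total counts only, no filter, DESeq2 1.42.0, all 6 groups in 1 fit, the mouse as replicate block, and each mouse or the shallowest library left out. The pairing comes from the animal number in the labels, since fractions of 1 number are from 1 mouse. The correlation of their residuals over genes was above 0.1 in 3 of 3 Aldh1l1-NuTRAP pairs, and, for Cx3cr1-NuTRAP, in 5 of 6 between unbound RNA and input, 3 of 6 between bound RNA and each of these, and 0 of 5 for whole tissue. CPM used the unrounded total, and correlations used log2 CPM with a prior count of 2.

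All 9 genes and the 3 genes of nearest pattern per gene are named. The rule for other names was the called gene of largest rise and of largest fall of each list in 3 comparisons, with a fixed set of lineage and marker genes. The text names only a part of these, mostly from the lineage lists (1 of them is not reported here). The genes and lists were chosen with earlier results of these data known. Tables were handled with pandas 2.3.3 and numpy 2.4.6 under Python 3.11.15, and plots drawn with matplotlib 3.10.9. Overlapping rows on the opposite strand exist for Gpr17 (Lims2, at most 15.1 CPM), Nkx2-2 and Bmp4 (Gm15217, at most 0.235 CPM). RefSeq promoter windows were used for 6 of the 9 genes.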

Additional observations from a re-analysis of the deposited data

Results flagged for a closer look

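For 8 of the 9 genes the log2 ratio of positive to negative fraction differed between the lines in edgeR's interaction test. The difference, Aldh1l1-NuTRAP minus Cx3cr1-NuTRAP, was 2.28 for Olig1, 2.21 for Nkx2-2 and 1.21 for Olig2, and it was -1.94 for Neu4, -1.61 for Gpr17, -1.32 for Sox10, -1.26 for Pdgfra and -1.01 for Cspg4. Of all 13983 genes tested, 55.4% differed.

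A library lay far from the others of its group in 3 of 36 sets of 1 gene in 1 Cx3cr1-NuTRAP group, by the gap to its nearest neighbour over the range of the group, and chance alone gives about 1 in 20. Pdgfra in the positive fraction of mouse 194 had 11.6 CPM, where the other 5 mice had 20.4 to 24.2. Olig2 in the negative fraction of mouse 155 had 34.9 CPM, where the other 5 had 44.4 to 47.5. Nkx2-2 in the whole tissue of mouse 210 had 8.57 CPM on 36 counts, where the other 4 had 12.5 to 13.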

How the results depend on the processing

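Of 1026 refitted fold changes of the 9 genes, 950 kept their direction and side of the threshold, 45 lost a call, 14 gained one and 17 changed sign. The number of genes called stayed within 1.5 times its value in the comparisons of the Aldh1l1-NuTRAP fractions, of the Cx3cr1-NuTRAP positive fraction with input and with whole tissue, of the positive fractions and in the interaction under every alternative. With each mouse left out it ran from 7 to 8, 6 to 8, 8 to 9, 7 to 8 and 8 to 8 in these, from 5 to 8 for the Cx3cr1-NuTRAP positive against negative fraction, from 0 to 2 for negative fraction against input, from 2 to 7 for input against whole tissue and from 0 to 1 between negative fractions. For negative fraction against input, 1 gene was called by DESeq2 and 3 with the mouse as replicate block, against 0. For input against whole tissue, 3 were called with no filter and 1 with all 6 groups in 1 fit, against 5. Between negative fractions DESeq2 called 1, against 0. The cause was not tested. No paired analysis was possible between lines, because they share no mouse. With the replicate block, calls went from 1 to 2 for the other sialidases (Aldh1l1-NuTRAP fractions) and, for the Cx3cr1-NuTRAP positive fraction against input, from 1 to 2 for neuron and from 2 to 1 for endothelial markers. There the block also gave Sox9 a call (-0.42, adjusted p = 0.0472, against 0.0556) and took that of Chrd (0.75, adjusted p = 0.1, against 0.0312). Among the named genes' fold changes it changed no other call beyond those in the results. All sign changes were of genes that did not pass. In negative fraction against input, Olig2 had 0.0034 (DESeq2 size factors) and 0.0041 (DESeq2), Sox10 had 0.0041 and 0.0042, and Nkx2-2 had -0.00064 with all 6 groups in 1 fit. Leaving out mice gave -0.04 to 0.03, -0.03 to 0.03 and -0.05 to 0.06 for these 3. Between negative fractions it gave -0.24 to 0.00047 for Olig2 and -0.28 to 0.0097 for Sox10, and in the interaction -0.33 to 0.04 for Bmp4. Bmp4 turned to -0.02 between positive fractions with total counts only. Nog in the Cx3cr1-NuTRAP positive fraction against input had 0.00032 (DESeq2 size factors), 0.00063 (DESeq2) and -0.12 to 0.17 without a mouse.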
